A study of Mus musculus with 12 samples.

Results

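Described here are 8 genes of the Wnt pathway in mouse embryonic stem cells (ESCs) without Dicer or Dgcr8: the secreted inhibitors Sfrp1 and Dkk1, the scaffold gene Axin2, the beta-catenin gene Ctnnb1, and the Tcf/Lef factors Lef1, Tcf7, Tcf7l1 and Tcf7l2. They were taken by symbol from the 18412 genes of the deposited tables, and all 8 are listed in each of the 4 tables. The series holds 12 libraries of polyadenylated, strand-specific RNA in 4 groups of 3: a Dicer1-/- line with TFC, a wild-type line, as its control, and a Dgcr8-/- line with V6.5, also wild type, as its control. All 4 lines grew on gelatin, with no feeder layer named, in medium with serum and leukaemia inhibitory factor. The labels mark TFC and V6.5 as wild type, give no other allele or agent, and do not say which part of a gene was deleted, whether a knockout line is 1 clone, or whether libraries of a group are separate cultures. Differences between a knockout and its control therefore cannot be told apart from differences between 2 lines, and the spread between libraries may be technical. The genes were proposed with their knockout and wild-type values known, so those values are given as a description. Test calls among them are only counted beside those of all genes, and nothing is read from the counts.

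Dicer and the Dgcr8 part of the Microprocessor complex make most microRNAs, and ESCs hold large amounts of microRNAs of the miR-290 cluster and the related miR-302 cluster. In the canonical Wnt pathway, secreted Wnt ligands bind Frizzled and Lrp receptors, which stops the destruction complex around Axin and Apc from marking beta-catenin for degradation. Beta-catenin then binds Tcf/Lef proteins on DNA and switches target genes on. Sfrp1 binds Wnt ligands outside the cell, and Dkk1 blocks the Lrp co-receptors. Axin2 is a scaffold of the destruction complex and itself a widely used target gene of the pathway. Lef1 and Tcf7 act largely as activators with beta-catenin, Tcf7l1 is mainly a repressor in mouse ESCs, where it holds down genes such as Nanog, Esrrb and Tfcp2l1, and Tcf7l2 can do either.

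The sequences that tie these genes to the lost microRNAs and to Tcf binding are few. In the RefSeq table of GRCm38.p6, 5 mature microRNAs of these clusters share the seed AAGUGCU, bases 2 to 8, shown in capitals:
mmu-miR-291a-3p: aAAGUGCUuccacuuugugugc
mmu-miR-294-3p: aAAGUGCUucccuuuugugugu
mmu-miR-295-3p: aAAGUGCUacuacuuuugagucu
mmu-miR-302b-3p: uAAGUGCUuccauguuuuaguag
mmu-miR-302d-3p: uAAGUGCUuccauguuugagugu
The 7-base complement of this seed, AGCACTT, is in the longest annotated 3' untranslated region (UTR) of 2 of the 8 genes, Lef1 and Tcf7, and in 15.1% of 17852 genes with such a region. With 6 bases, GCACTT, Dkk1 is added, and the share of genes is 29.3%. The matches, in capitals within 27 bases of GRCm38, are shown for these 3 genes, whose values in the knockouts are described below:
Lef1 3' UTR, chr3:131224064-131224090, plus strand: cctgtaaaaagcccAGCACTTgaattg
Tcf7 3' UTR, chr11:52252455-52252481, minus strand: gcacctataaccccAGCACTTgcgaga
Dkk1 3' UTR, chr19:30546957-30546983, minus strand: taaatcctcagtgtgGCACTTacctgt
The 7-base match GCACTTT to the seed AAAGUGC of the miR-17 family is in none of the 8 genes and in 12.2% of all. It shares the letters GCACTT with the miR-290 match. No microRNA was measured in these libraries.

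A Tcf/Lef motif was looked for in RefSeq promoter windows that run from 250 bases before to 50 bases after an annotated start. Of the 8 genes, 7 have 13 windows. The 7-letter motif CTTTGAT, on either strand, is in none of them and in 2.96% of 17582 windows. Its 6-letter core CTTTGA is in 13.7% of windows. It is found in the Dkk1 window and in 1 of 4 Lef1 windows, which belongs to a start inside the annotated Lef1 gene. These windows, the only ones with a match, are shown 5' to 3' on the gene's strand, with the core and its reverse complement TCAAAG in capitals:
Dkk1, chr19:30549447-30549746, minus strand: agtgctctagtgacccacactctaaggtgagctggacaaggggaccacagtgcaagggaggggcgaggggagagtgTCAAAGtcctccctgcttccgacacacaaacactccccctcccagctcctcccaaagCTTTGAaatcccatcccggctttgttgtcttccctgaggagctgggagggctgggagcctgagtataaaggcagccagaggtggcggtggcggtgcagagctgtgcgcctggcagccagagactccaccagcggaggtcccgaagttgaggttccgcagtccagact
Lef1, chr3:131156044-131156343, plus strand: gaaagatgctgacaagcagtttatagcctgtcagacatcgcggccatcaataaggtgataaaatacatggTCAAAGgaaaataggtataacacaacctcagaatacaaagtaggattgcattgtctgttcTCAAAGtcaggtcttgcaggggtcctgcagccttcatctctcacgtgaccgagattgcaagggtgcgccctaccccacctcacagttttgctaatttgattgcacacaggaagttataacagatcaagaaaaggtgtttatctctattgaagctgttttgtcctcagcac
The matches begin at positions -174 and -117 from the Dkk1 start and at -180 and -120 from the internal Lef1 start. They are letters in a window, and no binding was measured.

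The tables list group means of normalised reads, from which the reads of each library were solved as whole numbers (libraries A, B and C of a group, which carry no replicate number). Exonic depth was 5946407 to 33212902 reads per library, lowest in V6.5 library A, and intronic depth was 559057 to 5627798 reads. Between 66.4% and 71.6% of the nonzero read numbers were even, so the reads do not vary like independent single reads, and no counting interval is given. In each group, A is the library least correlated with the other 2. The A libraries of different groups deviated from their group means together (Pearson r of 0.713 to 0.815 over 9826 genes), so they stand apart as a set. Values within A and within B and C are therefore given where they differ. With B and C of other groups the r of A was -0.768 to -0.268. Deviations cancel out within a group, so B and C together had to run against A. Dicer1 averaged 1590 normalised exonic reads in Dicer1-/- cells and 3239 in TFC (log2 fold change -1.03 ± 0.23 SE, limma adjusted p = 0.0754), and Dgcr8 averaged 804 in Dgcr8-/- cells and 2528 in V6.5 (-1.80 ± 0.47, limma adjusted p = 0.110), without overlap in either pair. Since the deleted exons are not named, the reads left in the knockouts do not go against the labels. The summed level of 9 ESC identity genes was 93781 to 108639 in Dgcr8-/- cells and 44385 to 109125 in V6.5, where libraries B and C were the low ones. It was 117493 to 126281 in Dicer1-/- cells and 89202 to 118588 in TFC.

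Summed markers of other cells were apart between knockout and control for every list but the neural one in the Dgcr8 pair. In the Dicer pair only the primitive endoderm sums were apart. Fibroblast markers (12 genes) summed to 500 to 1410 normalised exonic reads in Dgcr8-/- cells and 5777 to 13215 in V6.5, with 6 and 12 of the 12 at a mean of at least 10. In Dgcr8-/- cells Lum was listed at 0. Mesoderm and primitive streak markers (10 genes) summed to 148 to 350 in Dgcr8-/- cells and 467 to 3840 in V6.5, with 5 and 7 at that mean, and T, which defines the streak, was listed at 0 in Dgcr8-/- cells. Trophectoderm markers (9 genes) summed to 2106 to 3423 in Dgcr8-/- cells and 10075 to 14066 in V6.5, with 6 and 9 at that mean. In Dgcr8 exons limma called 4 of 10 fibroblast and 1 of 7 mesoderm and streak markers with a fit. It also called 3 of 8 trophectoderm and 1 of 11 primitive endoderm markers. Those called were all lower in the knockout, beside 1.35% of all genes called in either direction. The medians of those fitted were -3.51, -3.27, -2.95 and -1.35. Higher in the knockout were 1 fibroblast, 0 streak, 3 trophectoderm and 3 primitive endoderm markers. Each list holds markers under a mean of 10 in Dgcr8-/- cells. These were fitted only through V6.5, and the filter favours negative values among them. In the Dicer pair, fibroblast markers summed to 405 to 593 in Dicer1-/- cells and 535 to 811 in TFC, with 5 and 12 of the 12 at that mean. Col1a2, Col3a1, Postn, Lum and Col6a1 were listed at 0 in Dicer1-/- cells, and 8 of the 9 fitted were lower there, with a median of -2.16 and no call. Those of the 9 under that mean in Dicer1-/- cells were fitted only through TFC, and the filter favours negative values among them. Mesoderm and streak markers summed to 243 to 488 in Dicer1-/- cells and 381 to 440 in TFC, with 5 and 4 at that mean, and Mesp1 was listed at 0 in both. Trophectoderm markers summed to 4617 to 6726 in Dicer1-/- cells and 1748 to 6108 in TFC, with 6 and 5 at that mean. The 6 fitted were all higher in Dicer1-/- cells, with a median of 2.13 and no call. Any of them under that mean in TFC was fitted only through Dicer1-/- cells, where the filter favours positive values. Primitive endoderm markers (12 genes) summed to 20390 to 31905 in Dicer1-/- cells and 8654 to 10591 in TFC. Of the 10 fitted in this pair 5 were higher and 5 lower, and limma called 2 higher in the knockout, beside 1.23% of all genes called. The sums were 13918 to 14492 in Dgcr8-/- cells and 15479 to 25256 in V6.5. Neural markers (7 genes) summed to 2430 to 4597 in Dicer1-/- cells and 2374 to 3926 in TFC. Of the 5 fitted 3 were higher and 2 lower (median 1.58), with 1 called higher in the knockout, beside 1.23% of all genes called. The sums were 2757 to 5152 in Dgcr8-/- cells and 3359 to 7147 in V6.5, where 4 of the 6 fitted were higher in the knockout and 2 lower (median 2.21, no call). In each pair 6 neural markers in the knockout and 4 in the control had a mean of at least 10. Those fitted only through the knockout favour positive values. The part of such cells in the results of either pair was not tested. In bulk RNA, fewer cells of a type and less RNA per cell cannot be told apart.

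Sfrp1 (chr8:23411502-23449632, plus strand, GRCm38) was the inhibitor with much the higher level per kilobase of exon in all 4 groups, and in the Dgcr8 pair it was higher in the knockout. It had 5282, 7325 and 6580 normalised exonic reads in Dgcr8-/- libraries A, B and C, against 1135, 1040 and 819 in V6.5. Every Dgcr8-/- library lay far above every V6.5 library. The means differed 6.41-fold, a log2 fold change, on the log2(value + 1) scale used throughout, of 2.68 ± 0.26 (SE, n = 3 libraries each). The difference was 2.22 between the A libraries and 2.91 between libraries B and C. In the Dicer pair it had 5755, 7186 and 6916 reads in Dicer1-/- cells, against 6033, 5355 and 3527 in TFC. These groups overlapped, since Dicer1-/- library A was below TFC library A, and the log2 fold change was 0.44 ± 0.27. Levels are not compared between the 2 pairs, whose tables were scaled separately.

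Dkk1 (chr19:30545863-30549665, minus strand) was close to absent outside V6.5. It was listed at 0 in all 3 Dgcr8-/- libraries, against 25.4, 63.5 and 76.5 normalised exonic reads in V6.5, from 10, 70 and 48 reads. No fold change is given against a group at 0. In the Dicer pair it had 1.28, 0 and 0 normalised reads in Dicer1-/- cells and was listed at 0 in TFC, below the mean of 10 needed for a fit. The secreted inhibitors thus differed in opposite directions in the Dgcr8 pair, Sfrp1 higher and Dkk1 lower in the knockout.

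Axin2 (chr11:108920349-108950783, plus strand) was low in both knockout lines. Normalised exonic reads were 67.6, 29.5 and 14.4 in Dgcr8-/- cells, against 485, 1317 and 1007 in V6.5. The knockout mean of 37.2 was 25.2-fold below the V6.5 mean of 937, a log2 fold change of -4.76 ± 0.68. Within the A libraries the difference was -2.82, and within B and C it was -5.73. The streak marker sums in V6.5 were 467 in A, 3134 in B and 3840 in C. Of these sums T, itself in the list of Wnt target genes, held 66.0, 2021 and 2243. In the Dicer pair it had 29.4, 34.1 and 0 reads in Dicer1-/- cells, against 287, 208 and 188 in TFC. The groups did not overlap, and the means of 21.2 and 228 differed 10.8-fold, with a log2 fold change of -4.46 ± 1.50. The wide error comes with library C, from which no Axin2 read was solved, and the value was -2.78 without it. The streak marker sums of the Dicer pair, given above, overlapped between knockout and TFC. A link between these sums and Axin2 was not tested in either pair.

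Ctnnb1 (chr9:120929216-120960507, plus strand) encodes beta-catenin, whose amount is set largely at the protein level. It had 20386, 21696 and 23611 normalised exonic reads in Dicer1-/- cells, against 17905, 20676 and 20789 in TFC. Its log2 fold change was 0.15 ± 0.26, and the groups overlapped. The TFC values rest on a choice between several solutions, of which that with the 3 libraries close together was kept. It had 15398, 16808 and 16380 reads in Dgcr8-/- cells, against 15222, 18982 and 18580 in V6.5, a log2 fold change of -0.11 ± 0.26. No protein was measured.

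**Figure D1:**
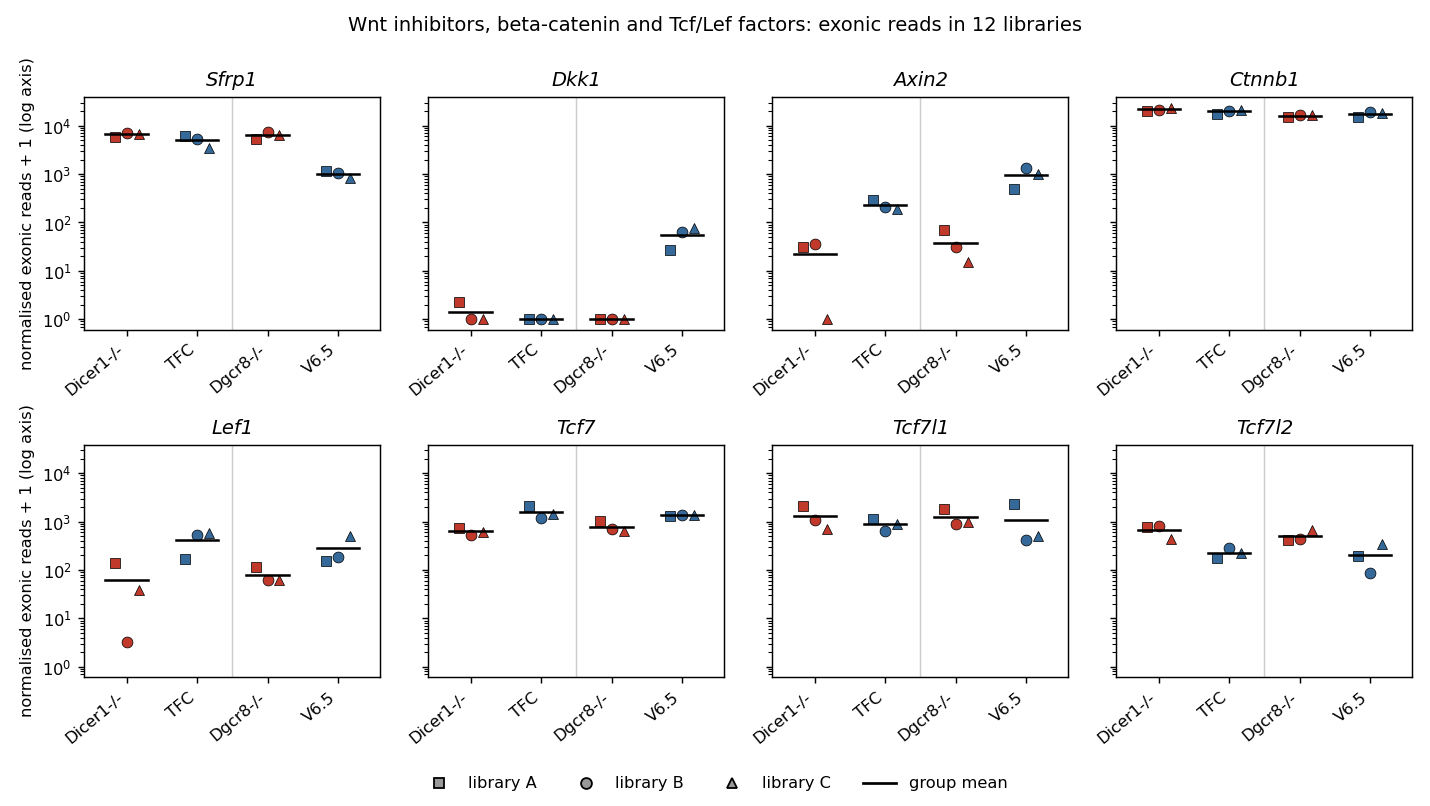
Normalised exonic reads plus 1, on a log axis, of the 8 genes in each library of Dicer1-/-, TFC, Dgcr8-/- and V6.5 cells, with the group mean as a bar; the Dicer and Dgcr8 pairs, left and right of the grey line, were scaled separately. Sfrp1 lies at 5282 to 7325 in Dgcr8-/- cells and at 819 to 1135 in V6.5, Axin2 is lower in both knockouts, and Lef1 in the A libraries (squares) is close between knockout and control.

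Of the Tcf/Lef factors, the activators Tcf7 and Lef1 were lower in both knockouts, Tcf7l2 was higher, and Tcf7l1 overlapped between knockout and control. Tcf7 (chr11:52252371-52283014, minus strand), also known as TCF1, had 746, 532 and 614 normalised exonic reads in Dicer1-/- cells, against 2123, 1184 and 1466 in TFC. All 3 knockout libraries were below all 3 TFC libraries, and the log2 fold change was -1.31 ± 0.31. In the Dgcr8 pair it had 1045, 698 and 631 reads in Dgcr8-/- cells, against 1333, 1374 and 1345 in V6.5, where the libraries were nearly equal. The log2 fold change was -0.81 ± 0.29, with -0.35 between the A libraries and -1.03 between B and C.

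Lef1 (chr3:131110471-131224356, plus strand) was lower in both knockouts as well, but chiefly in libraries B and C. It had 139, 2.27 and 37.2 normalised exonic reads in Dicer1-/- cells, against 166, 530 and 580 in TFC. The log2 fold change of -3.84 ± 1.36 was -0.25 between the A libraries and -5.63 between B and C, and -2.35 without Dicer1-/- library B. In the Dgcr8 pair it had 112, 61.4 and 62.4 reads in Dgcr8-/- cells, against 152, 187 and 494 in V6.5, a log2 fold change of -1.67 ± 0.62 with -0.44 between the A libraries and -2.28 between B and C. In each knockout the A library was the highest, and in each wild type it was the lowest. The groups did not overlap in either pair, but the gap was narrow, with 139 in Dicer1-/- library A next to 166 in TFC library A, and 112 in Dgcr8-/- library A next to 152 in V6.5 library A.

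Tcf7l2 (chr19:55741820-55933654, plus strand), also known as TCF4, was the factor that was higher in both knockouts without overlap. It had 777, 829 and 433 normalised exonic reads in Dicer1-/- cells, against 178, 280 and 221 in TFC. The means differed 3.0-fold, with a log2 fold change of 1.55 ± 0.45, and the difference held within A (2.12) and within B and C (1.26). In the Dgcr8 pair it had 413, 430 and 660 reads in Dgcr8-/- cells, against 193, 83.5 and 341 in V6.5, a 2.43-fold difference of means and a log2 fold change of 1.46 ± 0.56. The knockout A library at 413 was not far above V6.5 library C at 341.

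Tcf7l1 (chr6:72626378-72789254, minus strand), the ESC repressor also known as TCF3, overlapped between genotypes in both pairs. It had 2099, 1072 and 696 normalised exonic reads in Dicer1-/- cells, against 1105, 644 and 890 in TFC, a log2 fold change of 0.43 ± 0.42. It had 1810, 879 and 974 reads in Dgcr8-/- cells, against 2290, 424 and 507 in V6.5, a log2 fold change of 0.55 ± 0.65. The A library was the highest of its group in all 4 groups. In the Dgcr8 pair the difference was -0.34 in A and 1.0 in B and C, so its direction depended on the library set.

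Set per kilobase (kb) of exon, so that genes can be compared, the make-up of the Tcf/Lef mRNAs differed between knockout and control in the Dicer pair. In the Dgcr8 pair the shares given here overlapped between the groups. Lef1 and Tcf7 together made up 31.0 ± 8.79% of the 4 factors' exonic reads per kb in Dicer1-/- cells and 66.4 ± 0.557% in TFC (SD, n = 3 each). The Dicer1-/- libraries were at 25.7%, 26.1% and 41.1%, against 66.1%, 67.0% and 66.0% in TFC, so the groups were far apart in all 3 libraries. In the Dgcr8 pair the share was 36.5%, 40.6% and 34.0% in Dgcr8-/- cells, against 38.7%, 77.0% and 71.5% in V6.5. V6.5 library A, the shallowest, thus lay beside the knockout, and the difference of the means (37.0 ± 3.32% and 62.4 ± 20.7%) came from libraries B and C. Of the V6.5 libraries, A had the lowest fibroblast, streak and primitive endoderm marker sums and the highest ESC identity sum. Its trophectoderm and neural sums lay between those of B and C. The part of depth or of such cells in the shares was not tested. Tcf7l1 alone held 50.9 ± 9.01% in Dicer1-/- cells and 28.8 ± 2.51% in TFC, and 49.2 ± 5.57% in Dgcr8-/- cells and 32.9 ± 21.9% in V6.5. In the Dgcr8 pair its share was 55.6%, 45.6% and 46.4% in Dgcr8-/- cells, against 58.2%, 20.5% and 20.1% in V6.5. V6.5 library A thus lay above every Dgcr8-/- library. Tcf7l2 held 18.1 ± 5.26% in Dicer1-/- cells and 4.90 ± 1.99% in TFC, and 13.8 ± 5.84% in Dgcr8-/- cells and 4.67 ± 3.27% in V6.5. Its shares also overlapped in the Dgcr8 pair, with 7.91% in Dgcr8-/- library A and 8.43% in V6.5 library C. The summed level of the 4 factors was 841 ± 329 normalised exonic reads per kb in Dicer1-/- cells and 1051 ± 191 in TFC, and 842 ± 250 in Dgcr8-/- cells and 986 ± 338 in V6.5, with overlapping ranges in both pairs.

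**Figure D2:**
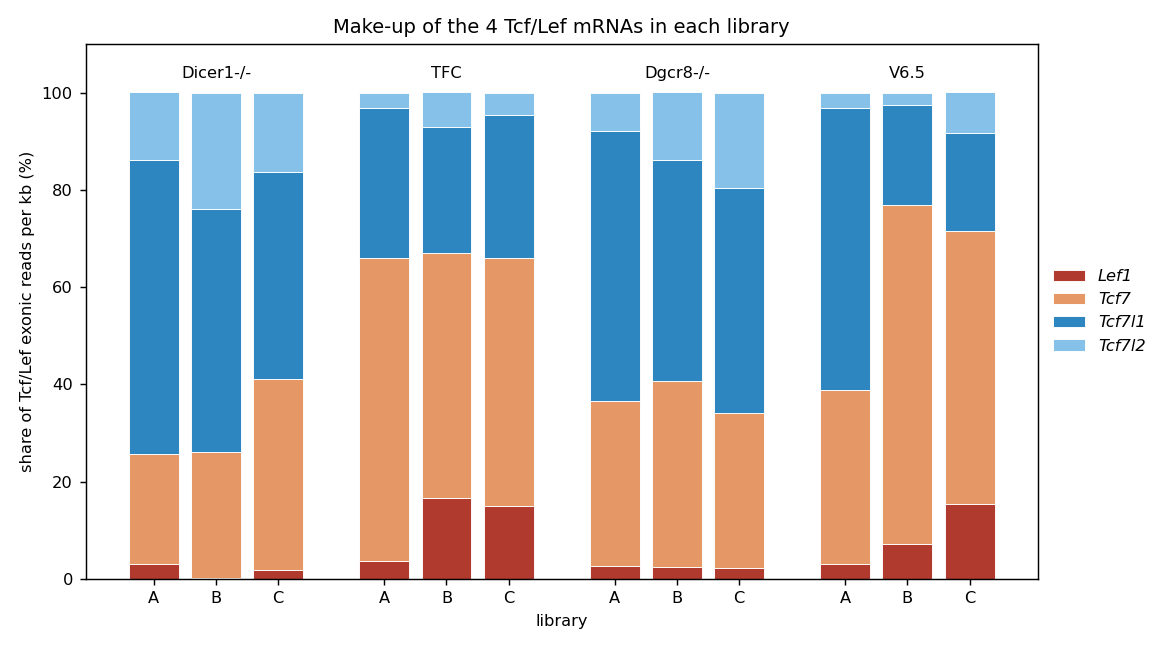
Share of each Tcf/Lef factor in the exonic reads per kb of the 4 factors, in percent, for each library; bars of 1 library add up to 100%. Lef1 and Tcf7 (red and orange) hold 25.7% to 41.1% in Dicer1-/- cells and 66.0% to 67.0% in TFC, and the Dgcr8-/- libraries at 34.0% to 40.6% lie beside V6.5 library A at 38.7%, below V6.5 libraries B and C.

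The order of the 8 genes by level per kb was led in all 4 groups by Ctnnb1, at 6044 ± 448 normalised exonic reads per kb in Dicer1-/- cells, 5462 ± 451 in TFC, 4470 ± 200 in Dgcr8-/- cells and 4856 ± 570 in V6.5 (SD, n = 3 each). Sfrp1 came next in Dicer1-/- cells (1514 ± 174), TFC (1137 ± 297) and Dgcr8-/- cells (1463 ± 237). In V6.5 it came after Tcf7 and Tcf7l1, at 228 ± 37.0. Its range of 187 to 260 overlapped that of Tcf7l1 (147 to 795) and that of Axin2 at 220 ± 98.8. Tcf7l1 had 2290 normalised exonic reads in V6.5 library A, against 424 and 507 in B and C. Its place above Sfrp1 thus rests on library A. In Dicer1-/- cells Tcf7l1 stood above Tcf7 (447 ± 252 and 230 ± 39.6) with overlapping ranges, whereas in TFC Tcf7 stood above Tcf7l1 (581 ± 176 and 305 ± 80.0) without overlap. Tcf7l1 also stood above Tcf7 in Dgcr8-/- cells (424 ± 178 and 289 ± 81.2), and Tcf7 above Tcf7l1 in V6.5 (493 ± 7.59 and 373 ± 366), both with overlapping ranges. Dkk1 was last in every group, at 24.7 ± 11.9 in V6.5 and at most 0.191 per kb elsewhere. In the Dicer1-/- line the neighbours Lef1 (16.2 ± 19.3) and Axin2 (4.97 ± 4.34) overlapped.

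Intronic reads, which come largely from RNA not yet spliced, lay in the same direction as exonic reads for Sfrp1, Axin2, Lef1, Tcf7 and Tcf7l2 in the Dgcr8 pair, at a much lower depth. Axin2 had 8.54, 0 and 0 normalised intronic reads in Dgcr8-/- cells, against 56.3, 166 and 125 in V6.5, a log2 fold change of -5.65 ± 1.20. Tcf7 had 57.2, 32.7 and 49.8 in Dgcr8-/- cells, against 172, 139 and 78.6 in V6.5 (-1.43 ± 0.52). Tcf7l2 had 152, 173 and 149 in Dgcr8-/- cells, against 65.2, 52.6 and 120 in V6.5 (1.07 ± 0.44). These 3 genes had no overlap in introns or exons of this pair. Lef1 introns were lower in the knockout too, with 3.41, 36.7 and 19.7 in Dgcr8-/- cells, against 35.5, 66.5 and 84.8 in V6.5 (-1.98 ± 0.92), but Dgcr8-/- library B lay above V6.5 library A. Sfrp1 introns, like its exons, were higher in the knockout but overlapped, with 64.9, 51.6 and 66.0 normalised intronic reads in Dgcr8-/- cells, against 59.2, 7.74 and 9.98 in V6.5. The log2 fold change was 1.78 ± 0.85, with 0.13 between the A libraries, where exons differed by 2.22, and 2.60 between B and C. Ctnnb1 introns were lower in the knockout without overlap (380, 323 and 299 in Dgcr8-/- cells, against 432, 492 and 579 in V6.5, log2 fold change -0.58 ± 0.29), while its exons overlapped.

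In the Dicer pair, introns resolved little. Tcf7l2 had 365, 164 and 294 normalised intronic reads in Dicer1-/- cells, against 89.4, 0 and 134 in TFC. This was the only gene of the 8 without overlap there, and its log2 fold change of 3.50 ± 1.39 was 1.24 without TFC library B, which is listed at 0. Sfrp1 (96.3, 0 and 96.0 in Dicer1-/- cells, 84.3, 0 and 0 in TFC) and Axin2 (16.4, 0 and 0 in Dicer1-/- cells, 37.1, 0 and 34.9 in TFC) had libraries at 0 beside libraries of the same group well above it, so no level can be read from them. Tcf7l1 had 536, 504 and 421 in Dicer1-/- cells, against 203, 314 and 456 in TFC (0.65 ± 0.35), and Tcf7 and Lef1 introns overlapped too. Dkk1 introns were listed at 0 in all 12 libraries.

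**Figure D3:**
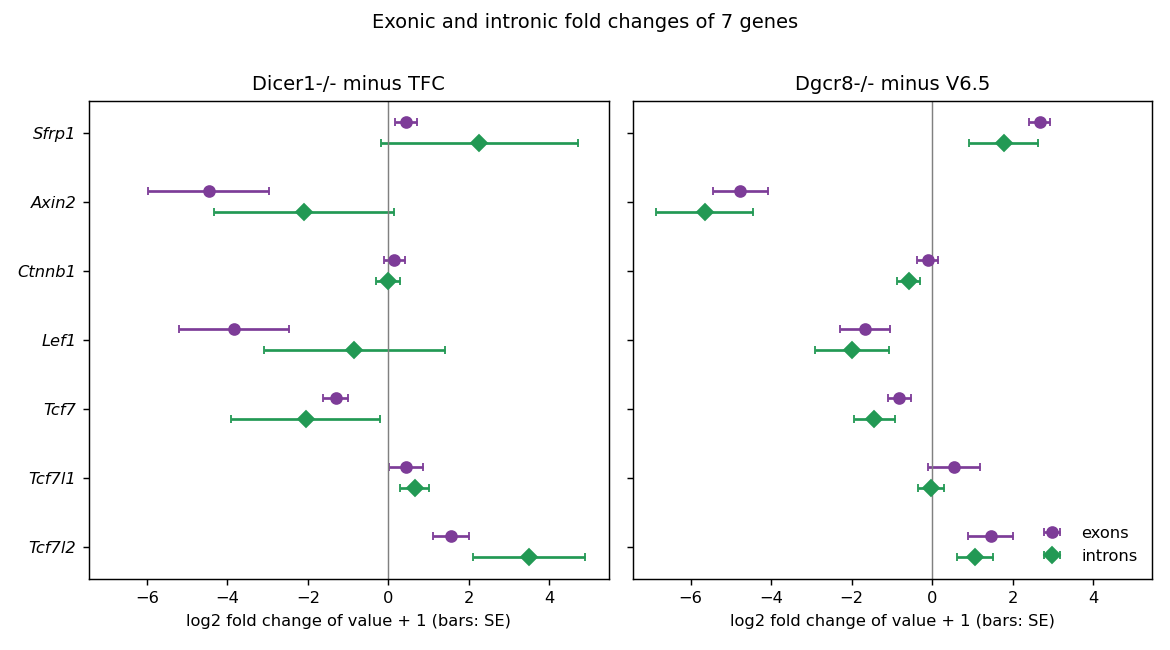
Log2 fold changes on the log2(value + 1) scale of 7 genes in exons (circles) and introns (diamonds), Dicer1-/- minus TFC and Dgcr8-/- minus V6.5; bars are the SE from 3 libraries per group. Dkk1 is left out because a group is at 0. Axin2 lies at -4.46 and -4.76 in exons of the 2 pairs, Tcf7l2 at 1.55 and 1.46, and the intronic errors of the Dicer pair reach 2.44.

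Counted over the genes, 4 of the 7 with a fit in Dicer exons had groups that did not overlap, 1 higher (Tcf7l2) and 3 lower (Axin2, Lef1 and Tcf7) in the knockout. Over all genes fitted there, 21.3% did not overlap, 11.7% with the knockout higher and 9.67% with it lower. In Dgcr8 exons it was 6 of 8, Sfrp1 and Tcf7l2 higher and Dkk1, Axin2, Lef1 and Tcf7 lower, beside 22.5% of all, 10.6% higher and 11.9% lower. In introns of the Dicer pair it was 1 of 7, Tcf7l2 higher, beside 17.3% (9.27% higher and 7.99% lower). In introns of the Dgcr8 pair it was 4 of 7, Tcf7l2 higher and Axin2, Ctnnb1 and Tcf7 lower, beside 19.7% (9.61% higher and 10.1% lower). At a limma adjusted p under 0.05 over all genes, 0 of 7 were called in Dicer exons, beside 1.23% of all, with 4 at an unadjusted p under 0.05 and 0 by limma-voom. Called were 2 of 8 in Dgcr8 exons (Sfrp1 and Axin2), beside 1.35%, with 6 at an unadjusted p under 0.05 and 1 by limma-voom. In Dgcr8 introns 1 of 7 was called (Axin2), beside 1.53%, with 4 at an unadjusted p under 0.05 and 0 by limma-voom. In Dicer introns it was 0 of 7, beside 0.353%, with 1 at an unadjusted p under 0.05 and 0 by limma-voom. Dkk1, at 0 in Dgcr8-/- cells, entered the Dgcr8 exon counts only through its V6.5 values and could only count as lower. The genes were chosen on these contrasts, so nothing is read from the counts. The median log2 fold change of all genes fitted was -0.01 in Dicer exons, 0.05 in Dicer introns, -0.08 in Dgcr8 exons and -0.05 in Dgcr8 introns.

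Across the 12 exonic libraries, each table centred on its own mean of log2 values, Axin2 followed Tcf7 (Pearson r of 0.82), and Lef1 followed Tcf7 (0.74). Tcf7l2 ran against Tcf7 (-0.81) and against Axin2 (-0.67), and Sfrp1 ran against Axin2 (-0.72). Ctnnb1 and Tcf7l1 ran against each other at -0.73. These values describe 12 libraries that share genotype and library set. The centring leaves the difference between knockout and control in each table, and the genes were chosen with that difference known. Genes lower in both knockouts thus tend to follow each other and to run against Tcf7l2. The same difference enters the r of the genes listed next. Correlation within a genotype was not tested, so no co-expression is read from these values. The genes most like Axin2 among 12379 were Micall1 (0.968) and Stap2 (0.963), and those most like Sfrp1 were B3glct (0.967) and Tmppe (0.957). For Lef1 they were Rasgrp1 (0.954) and Dusp19 (0.934), for Tcf7 Slc20a2 (0.961) and Bcl2l13 (0.960), for Tcf7l2 Capn3 (0.920) and Golga1 (0.916), for Tcf7l1 Ccnd3 (0.948) and Cilp2 (0.945), and for Ctnnb1 Npr3 (0.946) and Ahnak (0.943).

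The rest of the pathway was described with 120 further genes in 8 lists, of which 119 are in the tables. They were tested, but Wnt3, T, Cdx2, Nanog and Nr5a2 were known from earlier results of these data. All of these known genes are among those called below, so their calls are no independent support. Of the genes called in exons, Igfbp4 alone was not known in this way. In exons of the Dicer pair, 94 pathway genes had enough reads. At a limma adjusted p under 0.05, 0 rose and 1 fell, beside 1.23% of all genes called. At an unadjusted p under 0.05 there were 13, limma-voom called 0, and the median log2 fold change was 0.15. The gene that fell was Nr5a2, a nuclear receptor of naive ESCs in the list of genes held down by Tcf7l1. It had 1013, 1351 and 1114 normalised exonic reads in Dicer1-/- cells, against 2427, 3902 and 3902 in TFC (log2 fold change -1.53 ± 0.27, limma adjusted p = 0.0402). It was not called without Dicer1-/- library A, B or C or without TFC library B or C, where its adjusted p reached 0.281.

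The other lists had no call in Dicer exons by limma or limma-voom. Of 9 Wnt ligands fitted, 7 were higher and 2 lower, with a median of 0.66, and 1 was at an unadjusted p under 0.05. At a higher level, Wnt7b, named after its values were seen, had 808, 418 and 486 normalised exonic reads in Dicer1-/- cells, against 162, 56.3 and 170 in TFC (2.23 ± 0.62, limma adjusted p = 0.140). Its groups did not overlap, and limma called it with a library-set term. The ligands with the largest fold changes were at low levels: Wnt3a had 56.2, 47.7 and 79.7 normalised reads in Dicer1-/- cells, against 8.56, 0 and 54.7 in TFC, and Wnt10a had 3.83, 70.4 and 0 in Dicer1-/- cells and was listed at 0 in TFC. The genes for Wnt secretion, Wls, which carries Wnt proteins to the surface, and Porcn, which attaches their lipid, had fold changes of 1.64 ± 0.52 and 0.83 ± 0.36 (limma adjusted p = 0.194 and 0.339). Of 22 receptors and R-spondin genes, 17 were higher and 5 lower (median 0.24), with 0 at an unadjusted p under 0.05; Ror1, a Wnt receptor kinase, had 1.71 ± 1.0 and Fzd8 had -2.31 ± 2.55. The 8 other secreted inhibitors split 4 and 4, with Igfbp4 at -3.98 ± 1.68 and Draxin at -3.74 ± 1.58. Both are listed at 0 in Dicer1-/- library B, without which they were at -1.90 and -2.14. Among 16 genes of the destruction complex and Dishevelled, 8 were higher and 8 lower (median -0.02). The feedback inhibitors Nkd2 and Nkd1 had -4.78 ± 1.77 and -1.31 ± 2.29. Nkd2 had a mean of 8.52 in Dicer1-/- cells and 96.9 in TFC. It was thus fitted only through TFC, and the filter favours a negative value. The 15 nuclear partners had a median of -0.23, with the beta-catenin cofactors Bcl9l at 1.61 ± 2.30 and Pygo1 at -1.52 ± 1.84. The 15 target genes had a median of 0.68, with Jun at 4.30 ± 1.94 and Sp5 at 4.22 ± 1.83. Jun had 1466, 518 and 417 normalised reads in Dicer1-/- cells, against 530, 0 and 77.7 in TFC, and was at 1.74 without TFC library B. Sp5 had 128, 45.4 and 34.5 in Dicer1-/- cells, against 32.1, 0 and 0 in TFC, and was at 2.11 with a pseudocount of 10. Jun overlapped between the groups and Sp5 did not. In Dicer introns limma called 0 of 68, with 6 at an unadjusted p under 0.05, while limma-voom called 1, Notum.

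In exons of the Dgcr8 pair, 104 pathway genes had enough reads; 0 rose and 4 fell, beside 1.35% of all genes called, with 34 at an unadjusted p under 0.05 and 0 called by limma-voom. The 4 were the ligand Wnt3, the secreted inhibitor Igfbp4 and the target genes Cdx2 and T. Wnt3, a ligand of the early streak, had 15.0, 3.11 and 19.2 normalised exonic reads in Dgcr8-/- cells, against 157, 913 and 886 in V6.5 (log2 fold change -5.52 ± 0.96, limma adjusted p = 0.0443). Igfbp4 had 30.9, 1.55 and 4.80 in Dgcr8-/- cells, against 663, 1047 and 813 in V6.5 (-6.73 ± 0.95, limma adjusted p = 0.0279). Every Dgcr8-/- library was below every V6.5 library for these genes, and V6.5 library A was the lowest of its group. T, the streak factor also known as Brachyury, was listed at 0 in Dgcr8-/- cells, against 66.0, 2021 and 2243 in V6.5 (limma adjusted p = 0.0326). Cdx2, a trophectoderm and posterior factor, had 6.68, 0 and 0 in Dgcr8-/- cells, against 96.5, 194 and 163 in V6.5 (-6.21 ± 1.13, limma adjusted p = 0.0497). Without Dgcr8-/- library B or C, or V6.5 library B or C, limma called 0 genes of the whole comparison, these 4 included. Cdx2 was also not called without V6.5 library A. T and Cdx2 are themselves among the streak and trophectoderm markers whose sums were higher in V6.5. Both had a mean under 10 in Dgcr8-/- cells (0 for T and 2.23 for Cdx2). They were thus fitted only through V6.5 and could only come out lower.

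Of 14 Wnt ligands fitted in Dgcr8 exons, 13 had a negative fold change, with a median of -3.27 beside -0.08 over all genes, and 1, Wnt3, passed the test. The median was -3.34 without Wnt9b, which was at 0 in Dgcr8-/- cells. Another 5 (Wnt2b, Wnt7a, Wnt8a, Wnt10a and Wnt10b) also had a mean under 10 in Dgcr8-/- cells, so these 6 were fitted only through their V6.5 values, and the filter favours negative values among them. Of the 8 ligands with a mean of at least 10 in both groups, 7 were lower and 1 higher, with a median of -2.48. With a library-set term limma called 8 of the 14, but that term lowers the residual spread by construction, since A was picked as the library least like the others. Wnt7a had 5.01, 0 and 0 normalised reads in Dgcr8-/- cells, against 60.9, 127 and 121 in V6.5 (limma adjusted p = 0.0593), and Wnt8a had 0, 7.77 and 0 in Dgcr8-/- cells, against 33.0, 221 and 171 in V6.5 (limma adjusted p = 0.0824). Porcn was at 1.58 ± 0.40 and Wls at -2.50 ± 0.66 (limma adjusted p = 0.103 and 0.114). The 21 receptors and R-spondin genes had a median of -0.28 and no call, with 7 at an unadjusted p under 0.05. Rnf43, which removes Frizzled receptors from the surface, was at -4.11 ± 1.30, and the agonist Rspo1 at -2.40 ± 0.96. Rnf43 had a mean of 5.89 in Dgcr8-/- cells and 68.7 in V6.5. It was thus fitted only through V6.5, and the filter favours a negative value. The 17 genes of the destruction complex and Dishevelled (median -0.11) had no call, with 1 at an unadjusted p under 0.05. Among them Apc2 was at -1.82 ± 2.27 and Nkd2 at -1.78 ± 1.18. Nkd2, with a mean of 9.01 in Dgcr8-/- cells and 48.0 in V6.5, was likewise fitted only through V6.5. The 14 nuclear partners (median -0.01), with Pygo1 at 2.22 ± 1.28 and Bcl9l at -1.02 ± 1.85, had no call and 0 at an unadjusted p under 0.05. Of the 13 other secreted inhibitors, 5 were higher and 8 lower (median -0.57, -0.47 without Dkk2, which was at 0 in Dgcr8-/- cells, and -0.04 over the 8 with a mean of at least 10 in both groups), and of the 16 target genes, 6 were higher and 10 lower (median -1.48, and -1.44 without T).

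Notum, which removes the lipid from Wnt proteins and so inhibits them outside the cell, went the other way from Igfbp4. It had 1551, 450 and 349 normalised exonic reads in Dgcr8-/- cells, against 68.6, 39.0 and 12.8 in V6.5 (4.21 ± 0.81, limma adjusted p = 0.0563). In introns it rose, with 477, 315 and 305 in Dgcr8-/- cells, against 47.4, 6.96 and 15.0 in V6.5 (4.29 ± 0.61, limma adjusted p = 0.00312). Its values in the Dicer pair are named here after they were seen: 2382, 359 and 519 exonic reads in Dicer1-/- cells, against 273, 195 and 309 in TFC (1.58 ± 0.67, limma adjusted p = 0.332), and 1030, 479 and 477 intronic reads in Dicer1-/- cells, against 219, 178 and 218 in TFC (1.59 ± 0.36, limma adjusted p = 0.0805). The groups did not overlap in any of the 4 comparisons.

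In introns of the Dgcr8 pair, 72 pathway genes had enough reads; 2 rose (Notum and Nanog) and 4 fell (Wls, Znrf3, Igfbp4 and T), beside 1.53% of all genes called, with a median of -0.60, -0.39 without 6 genes at 0 in a whole group, and -0.16 over the 52 with a mean of at least 10 in both groups. Nanog had 427, 364 and 339 normalised intronic reads in Dgcr8-/- cells, against 160, 161 and 122 in V6.5 (1.35 ± 0.32, limma adjusted p = 0.0495). Wls had 17.1, 48.2 and 12.7 in Dgcr8-/- cells, against 68.1, 523 and 544 in V6.5 (-3.55 ± 0.75, limma adjusted p = 0.0304). Znrf3, a target gene that removes Frizzled receptors, had 90.5, 97.5 and 82.2 in Dgcr8-/- cells, against 219, 336 and 377 in V6.5 (-1.74 ± 0.36, limma adjusted p = 0.0269). Its exonic reads were 673, 772 and 947 in Dgcr8-/- cells, against 564, 613 and 633 in V6.5. They were higher in the knockout without overlap but not called (0.39 ± 0.29, limma adjusted p = 0.581). Igfbp4 and T introns were listed at 0 in Dgcr8-/- cells (limma adjusted p = 0.0467 and 0.0205). They were thus fitted only through V6.5 and could only come out lower. Without Dgcr8-/- library B none of the 6 was called, and without V6.5 library B or C Notum alone was. Without Dgcr8-/- library C Notum and T were called. Nanog was called in no fit that left out a library (limma adjusted p up to 0.224), Igfbp4 was not called without V6.5 library A either, and limma-voom called Wls, Znrf3 and Notum.

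The genes that Tcf7l1 holds down in ESCs were mostly higher in Dgcr8-/- cells: in exons 6 of 7 had a positive fold change (median 1.18), with no call and 4 at an unadjusted p under 0.05. With the library-set term 5 of the 7 were called. Klf2 had 14477, 3243 and 2811 normalised exonic reads in Dgcr8-/- cells, against 4276, 538 and 679 in V6.5 (2.13 ± 0.90, limma adjusted p = 0.293), and Nr0b1 had 3183, 2146 and 2246 in Dgcr8-/- cells, against 1889, 409 and 454 in V6.5 (1.81 ± 0.58, limma adjusted p = 0.172). As for the ESC identity genes, V6.5 library A was nearer to the knockout than libraries B and C. In Dicer exons 6 of the 7 were also positive, with a median of 0.23, and Tfcp2l1 had the next largest fold change after Nr5a2 (0.63 ± 0.28, limma adjusted p = 0.352).

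**Figure D4:**
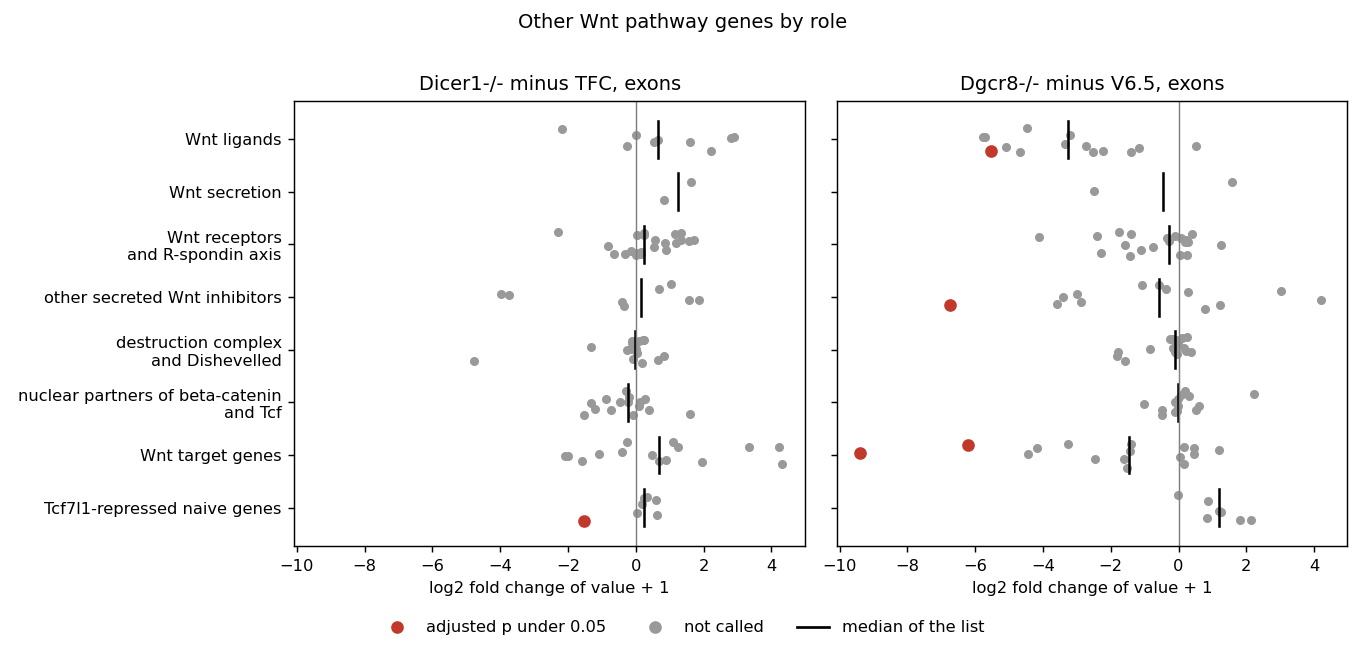
Log2 fold changes on the log2(value + 1) scale of the other pathway genes fitted in exons, by role, Dicer1-/- minus TFC (94 genes) and Dgcr8-/- minus V6.5 (104 genes); red points have a limma adjusted p under 0.05 and black bars mark medians. The Wnt ligands have medians of 0.66 and -3.27 in the 2 pairs, and 6 of the 14 in the Dgcr8 pair have enough reads in V6.5 alone; points of genes at 0 in a whole group, such as T, depend on the added 1.

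Whether the effects differ between the knockouts was tested in 1 limma model over all 12 libraries, as the Dicer minus the Dgcr8 fold change. Of 92 pathway genes 0 were called, beside 0.178% of 12379 genes, with 16 at an unadjusted p under 0.05 and 0 called by limma-voom. The smallest adjusted p was that of Wls, 0.116. Wls had 592, 808 and 513 normalised exonic reads in Dicer1-/- cells, against 334, 108 and 224 in TFC, and 371, 337 and 219 in Dgcr8-/- cells, against 561, 2589 and 3408 in V6.5. Each group was apart from its control, higher in Dicer1-/- cells and lower in Dgcr8-/- cells, and without V6.5 library A the difference of Wls was called with those of Fzd5 and Nr0b1. With a library-set term 3 differences were called, those of Wls, the ligand Wnt7b and Klf2. For the other Wnt ligands, the lower values of the Dgcr8 pair and the values of the Dicer pair are not shown to differ.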

How the data were processed

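The authors deposited 4 tables (exons and introns of the Dicer and of the Dgcr8 pair) of normalised reads, as 1 group mean per genotype, per the file headers; this signal, as the authors deposited it, is in reads divided by the size factor of each library. TopHat2 2.0.12, DESeq and mm10 are named in the submitters' processing notes, and the rule by which reads counted as exonic or intronic is not given in the sources used. The planned tests needed values of single libraries. Each mean is a whole-number combination of 3 steps, 1 per library; solving for them in Python 3.11.15 (numba 0.67.0) gave whole reads and size factors, with 1 solution for 99.46% to 100.00% of the genes of a column. Where several solutions existed, the only one with the libraries within 4-fold was kept, which favours a small spread, and otherwise the gene was left out. Libraries are called A (lowest mean correlation with the other 2), B and C (by size factor); in Dicer1-/- cells the choice of A was close (r of 0.850 and 0.863 against 0.866). Letters of intronic libraries came from the exonic library followed most closely, clearly for A (r of 0.355 to 0.509) and weakly for B and C (0.0720 to 0.336). Within groups, exonic libraries correlated at 0.744 to 0.922.

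Tests used limma 3.58.1 (R 4.3.3) on log2(value + 1), knockout minus wild type, with a variance trend, 4 residual degrees of freedom and Benjamini-Hochberg adjustment over all genes whose mean in the libraries of that table was 10 or more; both scripts were tested on simulated data. An exact permutation test of 3 against 3 libraries cannot go below p = 0.1. The added 1 shrinks fold changes of low genes, while a library at 0 in a group can make the fitted value larger than the fold of the means, as for Axin2 and Jun in Dicer exons. Near-identical copies and overlapping genes may share reads.

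The 8 genes, the pathway lists and the tests were chosen with earlier results of these data known. Named are the 8 genes, the targeted genes, every pathway gene called, in exons the 2 genes of each list with the largest absolute fold change, and the 2 genes most correlated with each of the 8; further names are given where their values show a result and were then chosen after those values were seen. Gene positions and 3' UTRs are from GENCODE M21 (GRCm38, the same build as mm10), promoters and microRNAs from RefSeq (GRCm38.p6). No column belonged to samples of another series. Alternatives were other pseudocounts, filters, scalings and variance models, limma-voom on the recovered reads, a library-set term, leaving out each library, shorter motifs, and libraries B and C only, the last chosen after seeing the data.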

Additional observations from a re-analysis of the deposited data

How the results depend on the processing

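Depth limits the low genes, above all in introns and in V6.5 library A with 5946407 exonic reads, and the tests rest on 4 residual degrees of freedom. With a library-set term, calls were 1624 in Dicer exons, 92 in Dicer introns, 2163 in Dgcr8 exons, 451 in Dgcr8 introns and 272 for the difference of effects, with 12, 1, 32, 11 and 3 pathway genes; with libraries B and C only they were 770, 0 (1006 at an unadjusted limma p under 0.05), 2295, 237 and 749, with 5, 0, 36, 8 and 12. A was picked as the library least like the other 2, so both settings lower the residual spread by construction. All libraries gave 163, 41, 172, 164 and 22 calls, with 1, 0, 4, 6 and 0 pathway genes. Limma-voom called 21, 63, 50, 121 and 16 genes, with 0, 1, 0, 3 and 0 of the pathway, and the fit with no variance trend called 35, 1, 166, 107 and 17, with 0, 0, 4, 4 and 0. A pseudocount of 10 gave 199, 87, 242, 314 and 29 calls, with 2, 1, 6, 9 and 0. The causes were not tested. A pseudocount of 0.5, no filter, a mean of at least 50 and upper-quartile scaling kept each count within 1.5 times.

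Leaving out each library in turn gave 0 to 515 calls in Dicer exons, 1 to 46 in Dicer introns, 0 to 469 in Dgcr8 exons, 26 to 206 in Dgcr8 introns and 11 to 102 for the difference, with 0 to 3, 0 to 0, 0 to 10, 0 to 7 and 0 to 3 pathway genes. Of the 8 genes, those fitted kept their direction in exons under every setting above. In introns the sign changed for Ctnnb1 (-0.22 to 0.24) and Lef1 (-2.77 to 0.66) in the Dicer pair and Tcf7l1 (-0.17 to 0.22) in the Dgcr8 pair. Among uncalled pathway genes in Dicer exons, leaving out a library gave -3.34 to 0.07 for Nkd1 (the last without Dicer1-/- library C), -0.85 to 3.83 for Bcl9l (the first without TFC library B) and -2.66 to 0.65 for Pygo1 (the last without Dicer1-/- library B). Bcl9l in Dgcr8 exons turned to 0.06 by limma-voom and ran over -2.85 to 0.45, turning without V6.5 library A or Dgcr8-/- library C. The shorter motif is in promoter windows of 2 of the 7 genes that have one in place of 0, beside 16.1% of genes in place of 3.48%. The shorter miR-290 match is in 3 of 8 in place of 2 (29.3% of genes), and the shorter miR-17 match in 4 of 8 in place of 0 (37.2% of genes). No paired analysis was possible because no library solved from the group means can be tied to a replicate number.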
